A study of Homo sapiens with 16 samples.

Results

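The 10 genes described here encode matrix metalloproteinases (MMP1, MMP2, MMP3, MMP9, MMP10, MMP14 and MMP15) and their tissue inhibitors (TIMP1, TIMP2 and TIMP3). They were chosen by name, out of 19974 protein-coding genes on chromosomes 1 to 22 and X in the RefSeq table for GRCh38. A peak was assigned to a gene when its summit, the base of highest coverage, lay in the gene body or within 20 kb of either end. This gave 235 distinct peaks over 10 peak lists. The windows of MMP1 and MMP10 overlap, and 7 peaks that fell in both were counted once in every total.

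Chromatin immunoprecipitation with sequencing (ChIP-seq) was done in A375, an established human melanoma line. All cells were starved of serum for 2 h and then received human TGFB1 at 10 ng/mL, or the vehicle it was dissolved in, 4 mM HCl containing BSA at 1 mg/mL, for another 2 h. The antibodies were against SMAD2/3, H3K27ac, MITF, ATF3 and JUNB, and each had 1 library per treatment. The labels give 1 experiment date to the SMAD2/3 and H3K27ac libraries, another to MITF and another to ATF3 with JUNB, so differences between those sets of antibodies cannot be told apart from the date. Technical triplicates are mentioned by the submitters, but a single list stands for each library, and with nothing to measure the spread between replicates no difference given here was tested. Melanoma markers in the chromatin were mixed: H3K27ac lay within 1 kb of a gene end at 4 of 9 melanocyte markers in vehicle and 5 with TGFB1. SOX10, MITF, PMEL and S100B carried it in both treatments, and none was called at TYR, DCT, TYRP1 or S100A1. Of 10 markers of other cell types, 2 (KRT14 and CD3E) carried it in each treatment.

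Matrix metalloproteinases are zinc enzymes that cut collagens and other matrix proteins. MMP1 is an interstitial collagenase, MMP3 and MMP10 are stromelysins, MMP2 and MMP9 are gelatinases, and MMP14 and MMP15 are anchored in the cell membrane. TIMPs block the active enzymes, and TIMP2 together with MMP14 also takes part in the activation of the MMP2 proenzyme. TGF-beta signals through SMAD2 and SMAD3, which enter the nucleus and bind DNA, often beside AP-1 factors such as JUNB. ATF3 is a stress-induced relative of the AP-1 factors, MITF is the lineage regulator of pigment cells, and H3K27ac marks active promoters and enhancers.

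Promoter sequence from RefSeq (GRCh38.p14) was at hand for 5 of the 10 genes: MMP10, MMP14, MMP15, TIMP1 and TIMP3. The 4 shown had a transcription factor peak over the 250 bases before the start site, and the fifth, that of MMP14, had H3K27ac there and no factor. Each is written 5′ to 3′ on the strand of the gene and ends at the base before the start site, and capitals mark matches to the motifs named afterwards.
MMP10 (chr11:102780629-102780878, minus strand): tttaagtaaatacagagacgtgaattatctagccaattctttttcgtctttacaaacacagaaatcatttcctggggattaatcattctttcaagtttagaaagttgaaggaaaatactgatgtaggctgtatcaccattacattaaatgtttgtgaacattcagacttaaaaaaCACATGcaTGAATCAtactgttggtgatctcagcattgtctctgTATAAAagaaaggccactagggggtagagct
TIMP1 (chrX:47582186-47582435, plus strand): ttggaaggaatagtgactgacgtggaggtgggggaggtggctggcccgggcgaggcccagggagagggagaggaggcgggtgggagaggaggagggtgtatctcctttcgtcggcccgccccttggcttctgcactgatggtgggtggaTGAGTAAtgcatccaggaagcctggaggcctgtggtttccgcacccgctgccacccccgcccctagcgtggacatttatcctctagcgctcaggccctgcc
MMP15 (chr16:58025504-58025753, plus strand): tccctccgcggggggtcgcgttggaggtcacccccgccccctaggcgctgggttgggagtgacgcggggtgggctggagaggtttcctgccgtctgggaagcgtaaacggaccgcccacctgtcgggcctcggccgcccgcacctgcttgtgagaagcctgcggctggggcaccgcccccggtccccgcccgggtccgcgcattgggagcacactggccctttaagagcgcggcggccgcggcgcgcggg
TIMP3 (chr22:32801455-32801704, plus strand): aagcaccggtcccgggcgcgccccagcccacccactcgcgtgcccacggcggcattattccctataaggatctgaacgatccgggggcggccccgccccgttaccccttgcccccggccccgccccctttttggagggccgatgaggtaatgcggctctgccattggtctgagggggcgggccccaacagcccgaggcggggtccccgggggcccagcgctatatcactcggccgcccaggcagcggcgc

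The motifs searched on both strands were TGACTCA and TGAGTCA (AP-1), TGACGTCA (CRE), GTCTAGAC and CAGACA (SMAD elements), CACGTG and CACATG (E-boxes of the kind MITF reads) and TATAAA. In these 4 stretches and that of MMP14, MMP10 alone held any of them: CACATG from position -75 and TATAAA from -31. Those occur in 9.42% and 10.7% of the 35116 RefSeq promoter stretches of this length, and AP-1 in 4.2%. A pair of looser AP-1 forms was added after these sequences had been seen, TGANTCA (which includes the AP-1 letters already named, found in 6.57%) and TGAGTAA (2.21%). MMP10 then held TGAATCA, whose centre lay 4 bp from the JUNB summit of the TGFB1 library. TIMP1 held TGAGTAA, 1 bp from the JUNB summit of the TGFB1 library, 34 bp from that of the vehicle library and 21 bp from the SMAD2/3 summit. Of the 2338 promoters with a JUNB summit of the TGFB1 library in the same 250 bases, 18.5% held TGANTCA, with the summit within 5 bp of its centre in 90, and 2.95% held TGAGTAA, with the summit that near in 10. A match describes letters in these windows and is no proof of binding.

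Over all 10 genes, the ligand libraries held more SMAD2/3, ATF3 and JUNB peaks than the vehicle libraries, and fewer but longer H3K27ac peaks. SMAD2/3 had 1 peak at these genes in vehicle and 8 with TGFB1, JUNB 20 and 39, ATF3 19 and 38, MITF 4 and 6, and H3K27ac 55 and 45. The H3K27ac peaks covered 52.0 kb in vehicle and 56.3 kb with TGFB1, so the lower number was no lower total extent. In places several vehicle peaks lay under 1 longer peak of the other library. In addition, 10 peaks were vehicle-only and 6 TGFB1-only. The covered length was lower with TGFB1 at TIMP3 (8.87 and 7.42 kb), MMP15 (2.33 and 2.13 kb) and TIMP2 (18.6 and 18.5 kb). It was higher at the other genes with H3K27ac, most at MMP2 (10.6 and 14.1 kb). The whole lists differed in the same direction for SMAD2/3 (1247 and 11406 peaks), JUNB (38514 and 64407) and ATF3 (49563 and 62997), and in the opposite direction for MITF (5695 and 5037) and H3K27ac (79172 and 80990). The lists imply a depth, in M reads and in the same order of treatments, of 9.37 and 10.2 for SMAD2/3, 21.5 and 23.2 for H3K27ac, 7.39 and 7.4 for MITF, 6.37 and 28.1 for ATF3, and 34.1 and 47.7 for JUNB. The ATF3 library with TGFB1 was thus 4.41 times as deep as its vehicle library.

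**Figure D1:**
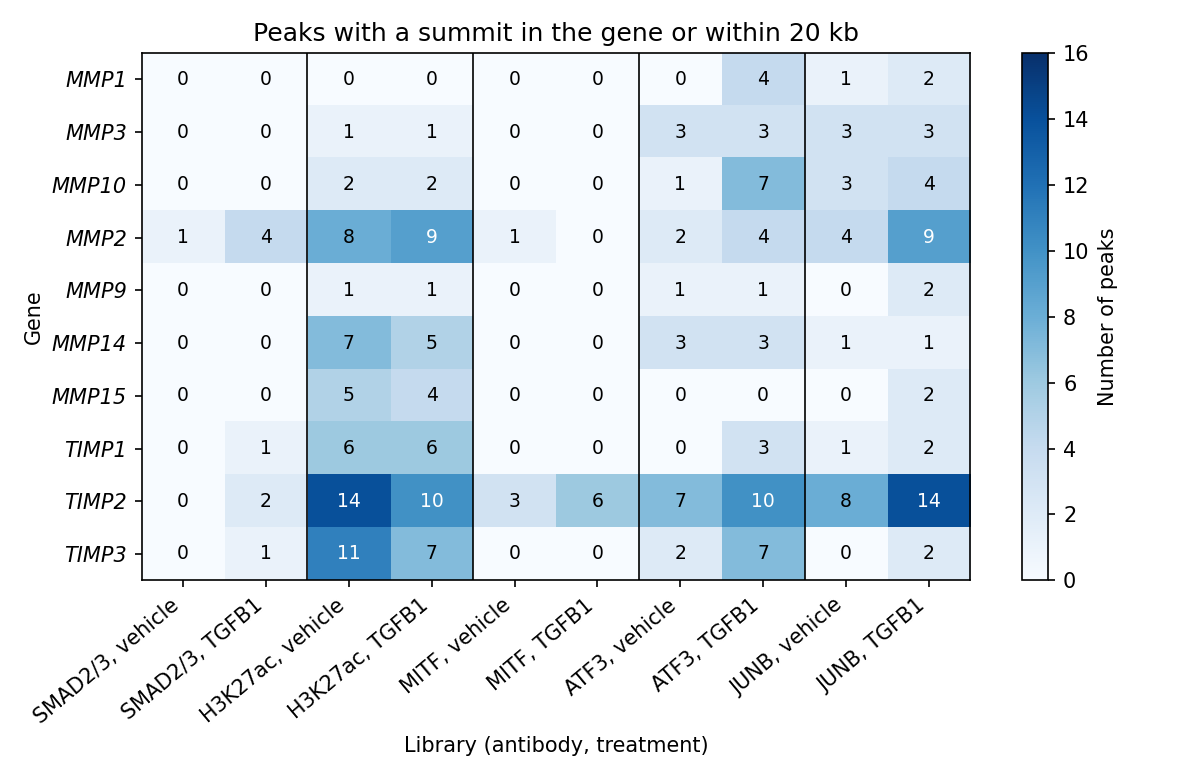
Number of peaks at each gene (rows) in each of the 10 libraries (columns, antibody and treatment), with darker blue for more peaks. MMP2 and TIMP2 hold the most factor peaks, SMAD2/3 appears at 4 genes with TGFB1, and MMP1 has no H3K27ac peak in either treatment.

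Peaks are described here by the authors' own fold enrichment over local background and -log10 p at the summit, and by the reads covering the summit, which were worked back from that pair of values. A peak is called shared when it overlapped a peak of the other treatment with the same antibody, and TGFB1-only or vehicle-only when it did not. Ranks are by -log10 p within the peak's own list. The fold enrichment adds 1 read to both coverage and background, which lowers it most where the background is small. The lowest ATF3 background was 0.352 reads in vehicle and 1.59 with TGFB1. Neither reads nor fold enrichments of ATF3 are therefore on 1 scale in the treatments.

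By gene, most of these counts lay near those of all genes. SMAD2/3 was called at 4 of 10 genes with TGFB1, where 34.2% of all genes had it, and at 1 of 10 in vehicle, where 2.3% did. H3K27ac was at 9 of 10 in both treatments (84.9% of all genes in vehicle and 85.2% with TGFB1). JUNB was at 7 of 10 in vehicle and all 10 with TGFB1 (66.2% and 80.6% of all genes), and ATF3 at 7 and 9 (58.8% and 79.9%). MITF was at 2 of 10 in vehicle and 1 with TGFB1, compared with 28.2% and 26.7%. Counted in the gene bodies alone, JUNB was at 3 of 10 in vehicle and 2 with TGFB1, so its higher count with TGFB1 was not kept. ATF3 was at 2 and 4, and most JUNB and ATF3 counts thus rested on peaks outside the genes. SMAD2/3 was then at 1 in vehicle and 3 with TGFB1, H3K27ac at 6 in both and MITF at 1 in both. No share of all genes was counted for gene bodies alone, so these counts have no baseline. The 10 genes had a median length of 10.6 kb and all genes one of 24.2 kb, so the windows compared were not of equal size.

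The gelatinase gene MMP2 held the strongest SMAD2/3 site of the set. MMP2 spans chromosome 16 from 55478830 to 55506691, and the gene table used has neither strand nor exons for it, so positions are given from its lower-coordinate end. SMAD2/3 had 4 peaks inside the gene with TGFB1 and 1 in vehicle. The largest, from 55499803 to 55500531 with its summit 21.3 kb inside, had a fold enrichment of 20.8 and 88 reads at the summit. By -log10 p (91.7) it ranked 99 of the 11406 peaks of its list, and it overlapped no vehicle SMAD2/3 peak. The lowest pileup of any peak in the vehicle SMAD2/3 list was 8 reads.

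JUNB and ATF3 were called at the same place. JUNB had 38 reads at the summit there in vehicle (fold enrichment 5.27) and 99 with TGFB1 (14.5), in libraries of 34.1 and 47.7 M reads. ATF3 was called there with TGFB1 (18 reads, fold enrichment 4.64) and not in vehicle. Scaled to the depth of the ATF3 vehicle library, this peak fell below the weakest -log10 p in that library's list.

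Acetylation around that site was called over a longer stretch with TGFB1. Vehicle H3K27ac had 4 peaks between 55498054 and 55504009, with 25, 80, 61 and 47 reads at their summits (95% Poisson intervals of 16.2 to 36.9, 63.4 to 99.6, 46.7 to 78.4 and 34.5 to 62.5). With TGFB1 there were 2 long peaks, from 55497709 to 55499946 and from 55500216 to 55504156, with 114 (94.0 to 137) and 170 reads (145 to 198). The intervals at the highest summits, 80 and 170 reads, do not overlap, but they cover counting error only, and the libraries of 21.5 and 23.2 M reads were single ones. The TGFB1-only H3K27ac peaks of MMP2 were weaker, with 21 reads at the strongest, from 55477302 to 55477519 and 1.38 kb below the gene, and 15 from 55496957 to 55497195, inside it.

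The lower-coordinate end of MMP2 was acetylated in both treatments. Its H3K27ac peak had 130 reads at the summit in vehicle (109 to 154) and 182 with TGFB1 (157 to 210). The fold enrichments went the other way, 42.5 and 17.7, over local backgrounds of 2.08 reads in vehicle and 9.34 with TGFB1. SMAD2/3 was called there in vehicle (55479301 to 55479639, 14 reads, fold enrichment 5.63) and with TGFB1 (55479101 to 55479475, 23 reads, 6.23), the only SMAD2/3 peak shared between treatments at these 10 genes. The next TGFB1 peak, from 55480338 to 55480664, was TGFB1-only with 39 reads and a fold enrichment of 10.3, and overlapped ATF3 of both treatments and JUNB of the TGFB1 library. The last, from 55502837 to 55503203, had 16 reads and overlapped acetylation but no other factor.

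A further MMP2 site lay outside the gene, 6.17 kb below its lower end. ATF3 had 26 reads there in vehicle (fold enrichment 18.8) and 116 with TGFB1 (34.6), and JUNB 18 and 56 reads. The ATF3 library with TGFB1 was 4.41 times as deep, and the local ATF3 backgrounds were 0.433 reads in vehicle and 2.39 with TGFB1. MITF was called at this place in vehicle alone, with 10 reads and a fold enrichment of 5.39. SMAD2/3 was not called at it in either library. The strongest vehicle JUNB peak of MMP2 lay nearby, at 7.22 kb below the gene, with 30 reads (fold enrichment 6.82) and 61 with TGFB1 (8.2). TGFB1-only JUNB peaks inside MMP2 at 1.72, 3.42 and 8.47 kb had 24, 22 and 26 reads.

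**Figure D2:**
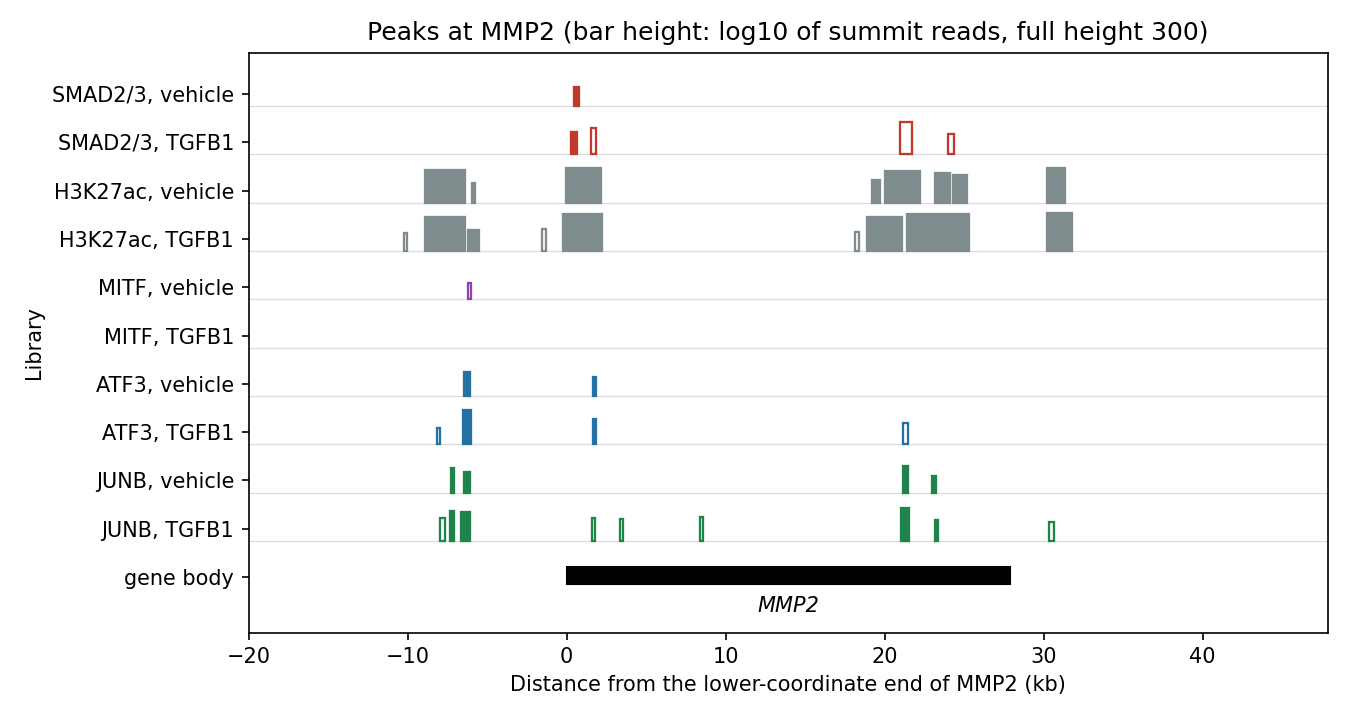
Peaks of the 10 libraries (rows) by distance in kb from the lower-coordinate end of MMP2, with filled bars for peaks shared between treatments and open bars for peaks of 1 treatment alone; bar height is the log10 of reads at the summit and narrow peaks are drawn at a minimum width. The open SMAD2/3 bar at 21.3 kb stands over JUNB of both treatments, ATF3 of the TGFB1 library and H3K27ac of both.

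In the windows of MMP10, MMP1 and MMP3, which neighbour each other on chromosome 11, ATF3 and JUNB were called and SMAD2/3 was not. MMP10 (102770502 to 102780628), MMP1 (102789919 to 102798160) and MMP3 (102835801 to 102843609) had no SMAD2/3 and no MITF peak in any library. With a list of 11406 peaks, absence means that no site there passed the caller's threshold at 10.2 M reads. MMP1 also had no H3K27ac peak. MMP3 had 1 in each treatment, with 8 reads in vehicle and 15 with TGFB1, and MMP10 had 2, the strongest with 18 reads in vehicle and 25 with TGFB1.

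The strongest ATF3 site of all 10 genes lay 9.9 kb below MMP10. Its summit, at base 102760598 in both libraries, had 95 reads in vehicle and 281 with TGFB1, with fold enrichments of 58.1 and 39.2. It ranked 76 of 49563 and 119 of 62997 peaks. JUNB was called over it in both treatments (38 and 85 reads), and H3K27ac was not called over it in either, the nearest acetylated peaks beginning at 102761795 in vehicle and 102761835 with TGFB1. A second JUNB site 7.83 kb below MMP10 had 28 reads in vehicle and 73 with TGFB1, with fold enrichments of 5.65 and 13.2.

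The MMP10 start site itself carried factors in the TGFB1 libraries alone. On this minus-strand gene the ATF3 summit was at position -8 (19 reads, fold enrichment 5.39) and the JUNB summit at -60 (27 reads, 5.67), within the promoter printed above. Neither was called in vehicle, no H3K27ac peak overlapped them, and scaled to vehicle depth both passed the weakest -log10 p of their vehicle list. The pair at the upper end of MMP1 was alike. Its ATF3 summit lay 0.142 kb outside the gene (20 reads) and its JUNB summit 0.05 kb outside (26 reads). Both were TGFB1-only, but here the ATF3 peak did not pass at vehicle depth. The scaled reads were rounded down to whole reads. The ATF3 backgrounds before scaling were 2.71 reads at MMP10 and 3.09 at MMP1, so this contrast rested on a small difference near the threshold. The strongest ATF3 peak of MMP1 lay 4.67 kb inside the gene, from 102794471 to 102794679, with 25 reads and a fold enrichment of 6.29, was TGFB1-only and passed the scaling. JUNB was also called inside MMP1 in vehicle alone, from 102791753 to 102791972, with 15 reads. An ATF3 peak of the TGFB1 library (17 reads) covered the same place.

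MMP3 had its shared factor peaks above the upper end of the gene, and a vehicle-only ATF3 peak of 7 reads 9.55 kb below the lower end. At 7.92 kb JUNB had 41 reads in vehicle and, at 7.91 kb, 90 with TGFB1 (fold enrichments 5.26 and 11.1). ATF3 at the same site had 11 and 60 reads (5.21 and 8.97). A site at about 5.9 kb had 24 and 43 reads for JUNB and 8 and 26 for ATF3. The TGFB1-only ATF3 peak nearest the gene lay 0.109 kb outside it, with 21 reads, and did not pass at vehicle depth.

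**Figure D3:**
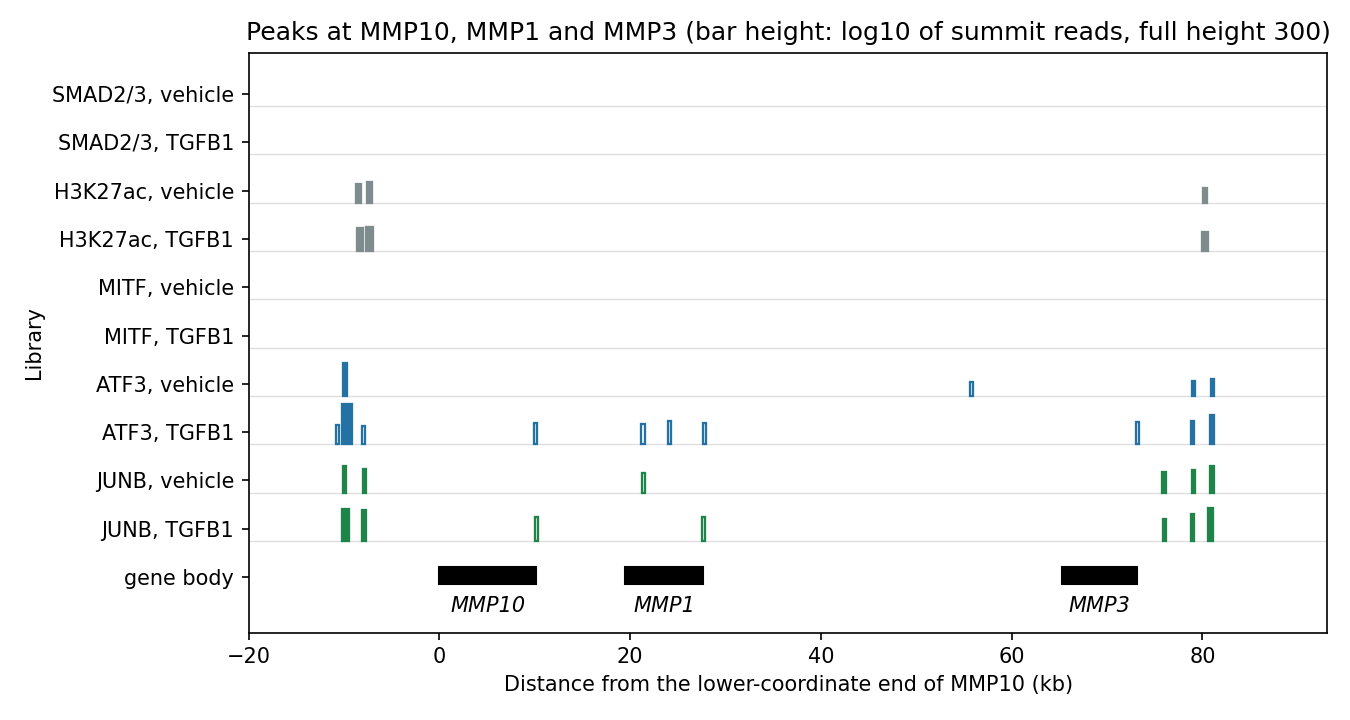
Peaks of the 10 libraries (rows) by distance in kb from the lower-coordinate end of MMP10, across MMP10, MMP1 and MMP3, drawn as in the map of MMP2. The SMAD2/3 and MITF rows are empty, the tallest ATF3 bars lie 9.9 kb below MMP10, and the bars at the upper ends of MMP10 and MMP1 are open and in the TGFB1 rows.

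The other gelatinase gene, MMP9 (chromosome 20, 46008908 to 46016561), had no SMAD2/3 peak and a single acetylated site. This lay about 15.4 kb below the gene, with 38 reads in vehicle and 45 with TGFB1. ATF3 was called over it with 12 reads in vehicle (fold enrichment 5.39) and 73 with TGFB1 (23.8), in the libraries that differed 4.41 times in depth. JUNB was called there (38 reads) and 0.118 kb below the gene (26 reads) with TGFB1 alone.

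The membrane-anchored enzymes showed acetylated gene ends without SMAD2/3. The H3K27ac peak over the start of MMP14 (chromosome 14, 22836585 to 22847758) had 127 reads in vehicle (106 to 151) and 159 with TGFB1 (135 to 186), and no factor peak lay within it. ATF3 was called 13.7 kb below MMP14 with 31 and 82 reads and fold enrichments of 23.7 and 32.0. The local backgrounds were 0.352 reads in vehicle and 1.59 with TGFB1, in ATF3 libraries that differed 4.41 times in depth. Another site, 3.81 kb above the gene, held JUNB with 56 reads with TGFB1 (13 in vehicle) and ATF3 with 36 (7 in vehicle). MMP14 had no TGFB1-only peak of any antibody. Over the ATF3 site 13.7 kb below the gene, H3K27ac was called in vehicle alone, from 22822627 to 22822886, with 23 reads and a fold enrichment of 7.48. The acetylated peak 6.53 kb below it had its summit inside the neighbouring gene MRPL52.

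MMP15 (chromosome 16, 58025754 to 58046901) was the gene with the fewest factor peaks. Its start site carried H3K27ac with 52 reads in vehicle (38.8 to 68.2) and 78 with TGFB1 (61.7 to 97.3). JUNB was called with TGFB1 alone, at position -97 (17 reads, fold enrichment 4.32) and 13.9 kb below the gene in the neighbouring gene USB1 (18 reads, 4.98). The strongest H3K27ac peaks of 1 treatment had 19 reads with TGFB1, 3.61 kb below MMP15, and 15 in vehicle, 10.6 kb above it, and ATF3, MITF and SMAD2/3 were not called in any library.

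Among the inhibitors, TIMP1 (chromosome X, 47582436 to 47586789, within the longer gene SYN1) carried JUNB at its start site in both treatments. The JUNB summit lay at position -64 in vehicle, with 28 reads and a fold enrichment of 6.46, and at -97 with TGFB1, with 62 reads and 17.3. ATF3 (-66, 14 reads) and SMAD2/3 (-77, 12 reads) were called there with TGFB1 alone. At the depth of the vehicle library the ATF3 peak fell below the weakest call of that list. The SMAD2/3 peak was among the weakest of its list, at rank 10995 of 11406 and a fold enrichment of 3.36, and was lost at a -log10 q of at least 5. The H3K27ac peak just inside the gene had 127 reads in vehicle (106 to 151) and 146 with TGFB1 (123 to 172). The strongest ATF3 peak counted for TIMP1 (38 reads, TGFB1-only) lay in the neighbouring gene ARAF and passed at vehicle depth. The TIMP1 window also held weak peaks of 1 treatment: H3K27ac with 15 reads 2.72 kb below the gene with TGFB1 and 15 in ARAF in vehicle, and JUNB with 16 reads 4.97 kb below with TGFB1.

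TIMP2 (chromosome 17, 78852977 to 78925387) was the only gene of the set with MITF in both treatments. Inside the gene MITF was called 31.0 kb from its lower end in vehicle (41 reads, fold enrichment 12.0) and at 30.9 kb with TGFB1 (41 reads, 12.6). Other shared MITF sites were at 9.23 kb in vehicle and 9.19 kb with TGFB1 (25 and 24 reads) and at 59.9 kb in both (23 and 27 reads). At each of these 3 sites the intervals of the 2 treatments overlapped, in libraries of 7.39 and 7.4 M reads. A further 3 MITF peaks were TGFB1-only, with 11, 16 and 12 reads, and the first 2 of these had their summits in the neighbouring gene USP36.

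SMAD2/3 was called at the MITF site inside TIMP2 in the TGFB1 library. Its peak from 78883662 to 78884045 had 27 reads and a fold enrichment of 5.8, ranked 3387 of 11406, and overlapped no vehicle SMAD2/3 peak. JUNB had 68 reads there in vehicle and 84 with TGFB1 (fold enrichments 13.0 and 8.35). The H3K27ac peak over it, from 78882202 to 78886687 in vehicle, was among the strongest of its lists, with 249 reads (219 to 282) in vehicle and 254 (224 to 287) with TGFB1. It ranked 1245 of 79172 and 345 of 80990.

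The other SMAD2/3 peak counted for TIMP2 lay 10.8 kb above the gene, from 78936026 to 78936283, with 27 reads and a fold enrichment of 7.24. JUNB was stronger there than anywhere else at the 10 genes, with 98 reads in vehicle (fold enrichment 25.3, rank 184 of 38514) and 171 with TGFB1 (34.4, rank 113 of 64407). ATF3 was called with 15 and 68 reads. The strongest TIMP2 peak of ATF3 in the TGFB1 library lay 8.95 kb above the gene and had 131 reads (fold enrichment 31.0), with 25 in vehicle (15.2). In vehicle the strongest had 37 reads (20.3) and lay in USP36. Among peaks of 1 treatment at TIMP2, the strongest with TGFB1 were ATF3 with 39 reads 4.55 kb below the gene, which passed at vehicle depth, JUNB with 32 at 8.97 kb above it and H3K27ac with 15 at 14.1 kb above it. Those of vehicle were H3K27ac with 13 reads inside the gene and ATF3 with 7 in USP36. No factor peak shared between treatments lay at the upper end of the gene itself, where H3K27ac had 174 and 173 reads.

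**Figure D4:**
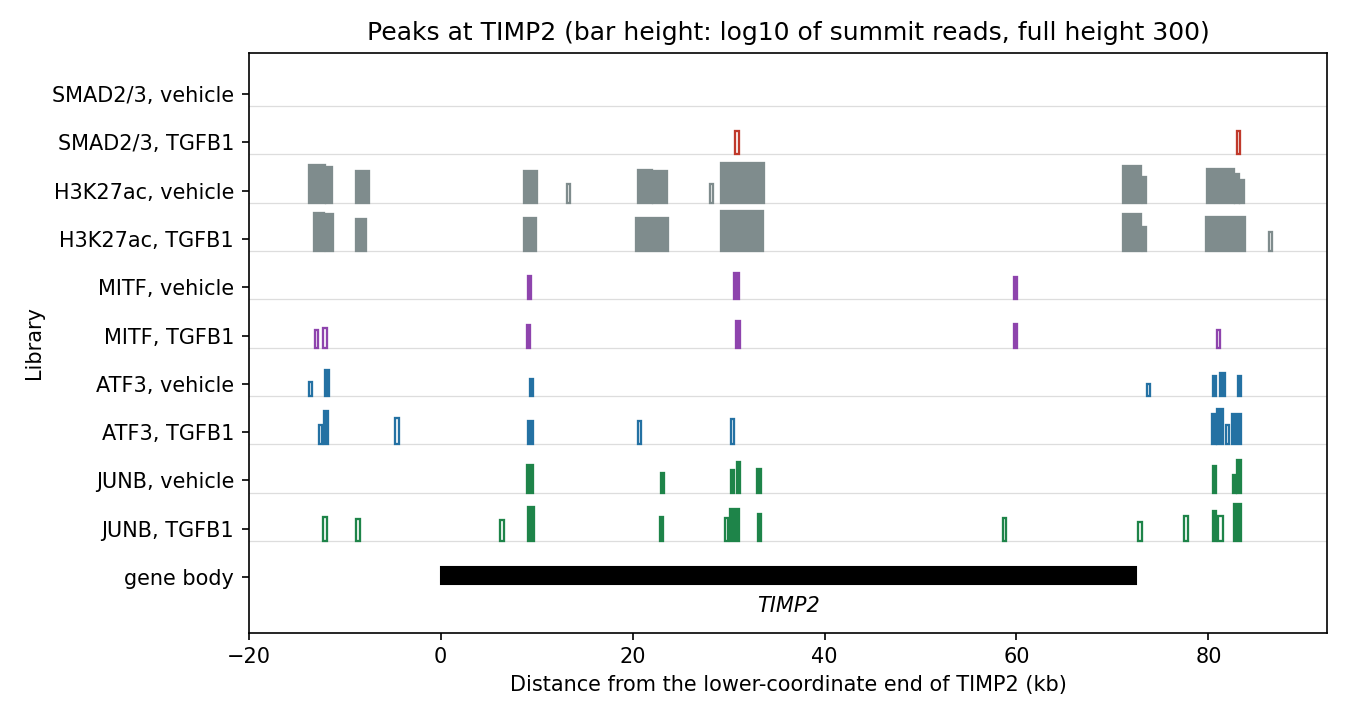
Peaks of the 10 libraries (rows) by distance in kb from the lower-coordinate end of TIMP2, drawn as in the map of MMP2. The filled MITF bars inside the gene recur in both treatments, and the open SMAD2/3 bars stand at 30.9 and 83.2 kb, each over JUNB and H3K27ac of both treatments.

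TIMP3 (chromosome 22, 32801705 to 32863041, within the longer gene SYN3) had SMAD2/3 just inside its start site with TGFB1. The peak from 32801723 to 32802032 had its summit 0.195 kb inside, with 19 reads and a fold enrichment of 6.45, and SMAD2/3 was not called there in vehicle. H3K27ac had 129 reads in vehicle (108 to 153) and 152 with TGFB1 (129 to 178) at the same place. ATF3 was called beside it at position -65 with TGFB1 alone (13 reads, fold enrichment 5.15), but this peak did not pass at vehicle depth. The strongest TGFB1-only ATF3 peak of TIMP3, 43.5 kb inside the gene, had 28 reads (11.2) and did pass. A vehicle-only H3K27ac peak 14.3 kb inside had 13 reads. The strongest ATF3 site of the TGFB1 library lay 12.6 kb below the gene, with 40 reads and 8 in vehicle, and JUNB was called over it with TGFB1 alone (12 reads). JUNB was weaker at TIMP3 than at any other of the 10 genes, with 12 reads at each of 2 TGFB1-only peaks.

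Taking the 8 SMAD2/3 peaks of the TGFB1 library at MMP2, TIMP1, TIMP2 and TIMP3 as a group, all 8 overlapped H3K27ac of both treatments. The summit itself lay inside an H3K27ac peak of the TGFB1 library in 6 of the 8. The summits of the strongest MMP2 peak and of the TIMP1 peak lay between H3K27ac peaks of that library. In vehicle an H3K27ac peak, from 55498847 to 55501054, covered the place of this MMP2 summit. Summits were not counted this way for the whole list. In the whole SMAD2/3 list 75.7% (95% Wilson interval 74.9 to 76.4%) overlapped H3K27ac with TGFB1 and 69.5% (68.6 to 70.3%) did in vehicle. JUNB of the TGFB1 library lay at 5 of the 8 (62.0% of the whole list, 61.2 to 62.9%), ATF3 at 5 (45.9%, 45.0 to 46.8%) and MITF at 1 (11.9%, 11.3 to 12.5%). Vehicle JUNB lay at 4 of the 8 and vehicle ATF3 at 2. The peaks without JUNB of the TGFB1 library were the first and last in MMP2 and the one in TIMP3. With 8 peaks these counts cannot be told from the whole-list shares.

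TGFB1-only peaks were found at 4 of the 10 genes for SMAD2/3 (33.4% of all genes), 8 for JUNB (71.3%), 7 for ATF3 (74.0%), 4 for H3K27ac (39.0%) and 1 for MITF (13.6%). Vehicle-only peaks were at 5 for H3K27ac (37.5%), 2 for JUNB (35.8%), 2 for ATF3 (39.3%), 1 for MITF (15.9%) and none for SMAD2/3 (0.511%). These counts lay near the shares of all genes. When the longer SMAD2/3 list was limited to its 1247 strongest peaks, as many as the vehicle list holds, MMP2 alone kept a TGFB1-only peak. With JUNB lists of equal length, TGFB1-only JUNB peaks were at 5 of the 10 genes in place of 8 and vehicle-only ones at 4 in place of 2. The shares of all genes were not recounted for lists of equal length, so these counts have no baseline. Depth bore on ATF3: 33.0% of all TGFB1-only ATF3 peaks still passed the weakest -log10 p of the vehicle list when scaled to vehicle depth. At these genes 7 of 22 TGFB1-only ATF3 peaks did. Those 7 lay in the windows of MMP1, MMP10, TIMP1, TIMP2 and TIMP3. Of the start-site peaks named above, that of MMP10 was among them and those of TIMP1 and TIMP3 were not. Scaled reads were rounded down to whole reads, so weak peaks near the threshold could fall on either side. A passing peak remained at 5 of the 10 genes and at 41.7% of all genes. All 22 TGFB1-only JUNB peaks (8 of the 10 genes, 67.8% of all genes) passed the same scaling. The scaling used the lowest background of each list, for SMAD2/3 1.08 reads in vehicle and 0.69 with TGFB1. It therefore left the SMAD2/3 peaks unscaled and could not show whether they depend on depth. Unscaled, all 7 TGFB1-only SMAD2/3 peaks (4 of the 10 genes, 32.8% of all genes) passed the weakest vehicle -log10 p of 4.8. That of TIMP1 was close to it, at 4.99.

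ATF3 and JUNB met at some sites and not at others. Overlapping SMAD2/3, MITF, ATF3 and JUNB peaks merged into 64 sites at the 10 genes, of which 60 held ATF3 or JUNB. The same merging over the windows of all protein-coding genes gave 86268 sites, 94.1% of them with ATF3 or JUNB. With TGFB1, 20 of the 64 sites held both (31.2%, and 18.1% of all sites), 18 held ATF3 without JUNB (28.1% and 27.2%) and 19 JUNB without ATF3 (29.7% and 30.9%). In vehicle 8 sites held both (12.5% and 3.78%), and all 8 held both with TGFB1 too. H3K27ac of the TGFB1 library overlapped 35 of the 64 sites (54.7% and 32.1%), and 27 lay on no acetylation in either treatment (42.2% and 65.9%). Sites of 1 gene are not independent, 22 of the 64 belong to TIMP2, and none of these differences was tested. MMP2 had acetylation of the TGFB1 library at 9 of its 11 sites and TIMP2 at 15 of 22, compared with none of 4 at MMP1, none of 5 at MMP3 and 1 of 7 at MMP10, whose window shares sites with that of MMP1.

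**Figure D5:**
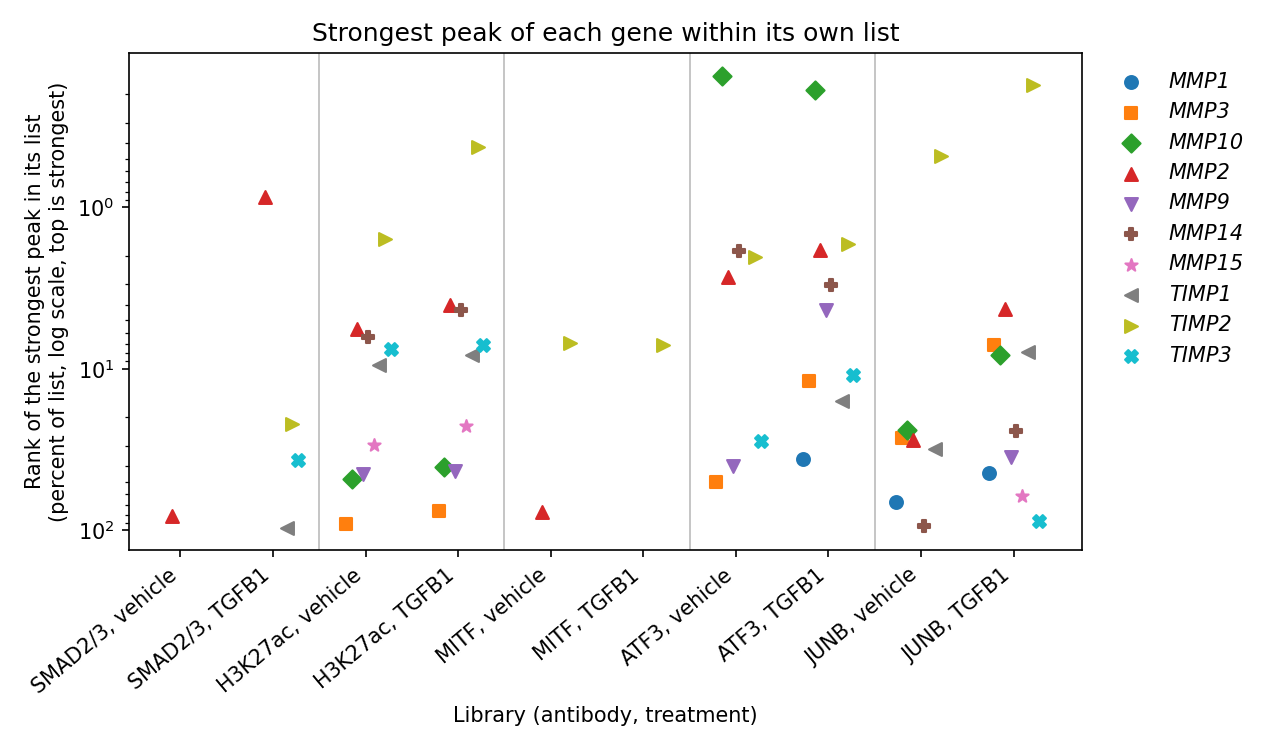
Rank by -log10 p of the strongest peak of each gene within its own list, as a percent of the list on a log scale with the strongest at the top, for the 10 libraries. MMP10 leads in both ATF3 lists, TIMP2 in both JUNB and both H3K27ac lists, and MMP2 in the SMAD2/3 list of TGFB1-treated cells.

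Other genes of the protease system were counted the same way: 16 further MMP genes, the inhibitors TIMP4 and RECK, and the activators FURIN, PLAU, PLAUR and BSG. SMAD2/3 of the TGFB1 library lay at 9 of these 22 (34.2% of all genes) and of the vehicle library at none (2.3%). A TGFB1-only SMAD2/3 peak was at 9 of 22 (33.4% of all genes). The 9 were MMP13, MMP16, MMP17, MMP20, MMP28, RECK, FURIN, PLAU and BSG. PLAU, which encodes the urokinase plasminogen activator, had the peak of highest -log10 p (73894570 to 73894864 on chromosome 10, 25 reads, fold enrichment 14.2), below the 88 reads at MMP2. FURIN, a protease that activates the membrane-anchored MMPs, had 24 reads and a fold enrichment of 8.47. JUNB of the TGFB1 library lay at 19 of 22 (80.6% of all genes) and ATF3 at 21 of 22 (79.9%). No difference from the shares of all genes was tested. The MMP12 window shared 13 of its 14 peaks with that of MMP3, and without MMP12 the JUNB and ATF3 counts were 18 and 20 of 21. MMP13 and MMP20, on chromosome 11 like MMP1, thus had SMAD2/3 peaks where the windows of MMP1, MMP3 and MMP10 had none. Both peaks were weak, with 9 reads (fold enrichment 4.48) at MMP13 and 12 (3.36) at MMP20.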

How the data were processed

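Per the submitters' processing notes, Bowtie was the authors' aligner, GRCh38 their build and MACS2 (version 2.0) their peak caller, with 1 list per library; the control input and the handling of duplicates are not given in the sources used here. The fold enrichment of each peak, a ratio of coverage at the summit to local background, is the authors' deposited value. The -log10 p and -log10 q at each summit were likewise deposited by the authors, with a lowest -log10 q of 1.3 to 1.43 in the 10 lists. The 6 inputs were not analysed here.

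The members and the gene lists were chosen with earlier results of these data known. All 10 genes are named, with every SMAD2/3 peak and, for the other antibodies, the peak of highest -log10 p in each library and among those of 1 treatment alone; further peaks were chosen after their values were seen. Genes like a member were the 2 nearest by the strongest -log10 p in the 10 libraries. Overlap means 1 bp or more in common. Reads at each summit were solved from fold enrichment, (pileup + 1)/(background + 1), and the Poisson -log10 p, and came out whole in 100.0% of peaks (error in -log10 p of at most 0.002). Reads were extended by the caller, so pileups of the SMAD2/3 pair (shortest peaks 311 and 183 bp) are not on 1 scale. Depth is an estimate, from the shortest peak, the lowest background of a list and an assumed genome of 2.7 Gb. Intervals of reads are exact Poisson intervals at 95%, cover counting error only, and leave out that the summit is a maximum. Overlaps and pileups were tested on simulated data (600 of 600 planted overlaps and 16148 of 16148 pileups recovered). Other settings tried were different windows, a minimum -log10 q of 5, equal list lengths, reciprocal overlap of 50%, a 500 bp margin around partner peaks, a summit rule, the top 5000 partner peaks and scaling to vehicle depth. Python 3.11.15, numpy 2.4.6, pandas 2.3.3, scipy 1.17.1 and matplotlib 3.10.9 were used.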

Additional observations from a re-analysis of the deposited data

How the results depend on the processing

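No paired analysis was possible because each antibody and treatment had 1 library and no result comes from a test. Of 131 counts recomputed under another setting, 107 stayed within 1.5 times the value reported and 24 did not. The cause was not tested. Shares of all genes were recounted for the scaling to vehicle depth alone. At a -log10 q of at least 5, MITF in vehicle was at 1 gene, TGFB1-only H3K27ac at 2, vehicle-only MITF and ATF3 at 0, and vehicle ATF3 had 12 peaks. With a window of 10 kb vehicle ATF3 had 11 peaks, vehicle-only H3K27ac was at 3 genes and vehicle-only JUNB at 1. With 50 kb MITF with TGFB1 was at 2 genes. In gene bodies alone, MITF in vehicle was at 1 gene, ATF3 at 2 in vehicle and 4 with TGFB1, and JUNB at 3 and 2. With a reciprocal overlap of 50%, vehicle-only peaks were at 1 gene for SMAD2/3, 4 for ATF3 and 5 for JUNB. With equal list lengths, TGFB1-only peaks were at 1 gene for SMAD2/3 and 5 for JUNB, and vehicle-only peaks at 1 for SMAD2/3 and 4 for JUNB. Against the top 5000 partner peaks, 3 SMAD2/3 peaks overlapped H3K27ac, 1 ATF3 and 2 JUNB. Scaling to vehicle depth, added after seeing the data, left ATF3 TGFB1-only peaks at 5 genes. No recomputed count fell outside 1.5 times under a 500 bp margin, the summit rule or the depth scaling. That scaling left SMAD2/3 and MITF peaks unscaled, and only genes were recounted for this comparison. Of the 22 TGFB1-only ATF3 peaks themselves, 7 passed it.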

Other observations

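Genes whose pattern over the 10 libraries was most like that of a member were found by the distance between their strongest peaks (log10 of 1 plus the highest -log10 p within 20 kb, with 0 for none). For TIMP3 the nearest were GNB4 (distance 0.19) and NYAP1 (0.204), with SMAD2/3 of the TGFB1 library at a -log10 p of 12.4 and 17.5, compared with 12.8 at TIMP3, and no MITF or vehicle JUNB peak. For TIMP1 they were KLHL2 (0.196) and NLN (0.303), where the highest JUNB -log10 p was 19.7 in vehicle and 87.5 with TGFB1, and 19.9 and 36.9. TIMP2 lay nearest to TOM1L2 (0.502) and DNAJB1 (0.503), both with MITF peaks in each treatment. MMP2 had no near match, and its closest genes were ELAPOR1 (0.801) and RPP14 (0.897). Any gene without a vehicle SMAD2/3 or vehicle MITF peak was farther from MMP2 than both, whatever its other peaks. MMP2 had these vehicle peaks with 14 and 10 reads, and 2.3% of all genes had a vehicle SMAD2/3 peak. The lack of a match therefore does not single out SMAD2/3 with TGFB1. Its -log10 p was 18.3 at ELAPOR1, 17.9 at RPP14 and 91.7 at MMP2. These distances describe single libraries and carry no test.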
